A study of Zea mays with 8 samples.

Results

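Genes of gibberellin and brassinosteroid synthesis, with the gibberellin signalling repressors d8 and d9, were followed in maize anthers, the tassel organs in which pollen is formed. The set holds 9 gene IDs of the 39604 measured, listed by ID: an1, d1, d8, d9 and the ID GRMZM2G093603 as gibberellin genes, and Dwf4, na1, na2 and brd1 as brassinosteroid genes. The name table used here goes against 1 of these labels. GRMZM2G093603 (chromosome 2, 10562531 to 10567539) was listed as d3 (CYP88A1), but RefSeq leaves it without a gene name and gives CYP88A1, d3 and dwarf3 to GRMZM2G093195 on chromosome 9. GRMZM2G093603 is therefore called by its ID, and CYP88A1 is described beside the set as a gene added after its values were seen. RefSeq names an1, d1 (as Dwarf1), d8, d9, Dwf4 and na1 directly, while it lists na2 under DWF1 and brd1 under Dwarf2.

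Gibberellins are diterpene hormones made from a common plastid precursor and finished by oxidases. They act by bringing about the breakdown of DELLA proteins, nuclear repressors of growth. Brassinosteroids are steroid hormones made from plant sterols by reductases and cytochrome P450 enzymes, and they are sensed by receptor kinases at the cell surface. In maize, mutants of both pathways are dwarf and alter the sex of florets: loss of gibberellin lets anthers develop in the ear, and loss of brassinosteroid brings out pistils in the tassel. In rice and Arabidopsis both hormones are needed for normal tapetum and pollen development.

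RNA was sequenced from field-grown wild-type (WT) plants and from plants homozygous for a mutation of HDA108 (hda108/hda108), a histone deacetylase gene. Anthers were taken at a post-meiotic and at a mitotic stage, with 2 libraries per genotype and stage, each from anthers pooled over 3 tassels. Below, "after meiosis" stands for the post-meiotic stage alone and says nothing on the order of the stages. The deposited table holds 1 FPKM (mapped fragments per transcript length and library size) per gene and group, 4 values in all, so no spread between replicates, error or test can be given for any value below. A gene is called higher or lower where log2(FPKM + 1) differs by at least 2, which is 4-fold for abundant genes, and a difference of at least 1 (2-fold) is given as a looser rule. Folds are ratios of FPKM.

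The mutated gene HDA108 had 12.3 FPKM in WT anthers and 4.10 FPKM in mutant anthers after meiosis, and 6.43 against 4.30 FPKM at the mitotic stage. With the groups brought to equal sums, as explained next, its mitotic difference of -0.49 log2 turned to 0.66. Sequencing depth is unknown. The FPKM summed to between 505427 and 1284185 per group and were lower in hda108 at both stages. With every group brought to the same sum (1000000, "equal sums" below), the median of hda108 minus WT over all genes changed from -0.03 to 0.50 log2 in post-meiotic and from -0.02 to 1.05 in mitotic anthers, and values with equal sums stand beside the deposited ones where they change a reading. Of 8 tapetum and anther wall marker names (anther wall markers below), 5 had a row, with none at 0. Their summed level ranged from 55.9 to 138 FPKM over the groups, most of it from ms23 and ms32. ocl4 stayed below 1 FPKM in every group, and ms8 in all but hda108 post-meiotic anthers. Among the 5, ms23 was called lower in hda108 at the mitotic stage, 23.7 against 3.0 FPKM. ms8 was called higher in hda108 after meiosis, 0.608 against 7.02 FPKM. The 4 of 6 pollen markers with a row were all called lower in hda108 at both stages, with sums of 12209 FPKM in WT and 1251 FPKM in hda108 after meiosis, and of 23038 and 2521 FPKM at the mitotic stage. The 3 green tissue markers summed to 209.8 and 395 FPKM after meiosis and to 61.3 and 110.2 FPKM at the mitotic stage in WT and hda108.

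The DELLA genes d8 and d9 were the most abundant of the 9 in WT anthers. d8 (GRMZM2G144744, chromosome 1, 266160100 to 266163168, B73 RefGen_v3) had 71.6 FPKM in WT anthers and 45.0 FPKM in mutant anthers after meiosis, and 61.6 against 21.9 FPKM at the mitotic stage. d9 (GRMZM2G024973, chromosome 5, 11793472 to 11795945) had 44.5 and 27.5 FPKM after meiosis and 41.7 and 16.0 FPKM at the mitotic stage, in the same order. Both genes were thus high in the 2 WT groups, lower in hda108 after meiosis and lowest in hda108 at the mitotic stage. In WT post-meiotic anthers d8 ranked 2439 and d9 3750 by abundance among the 24360 genes with at least 1 FPKM in a group. In hda108 mitotic anthers they stood at ranks 4705 and 6426.

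d8 was 1.59-fold lower in hda108 after meiosis and 2.81-fold lower at the mitotic stage, and d9 was 1.62-fold and 2.61-fold lower. In bulk anthers, fewer cells of a type and less RNA per cell cannot be told apart. On the log2 scale the mitotic differences were -1.45 and -1.33, inside the 4-fold rule and past the 2-fold rule. With equal sums they shrank to -0.14 for d8 and -0.04 for d9, below the all-gene median of 1.05, and they were -0.82 and -0.86 with quantile normalization. Pollen markers were lower in the same groups, by 4.30-fold to 12.2-fold at the mitotic stage. As deposited, the summed anther wall markers were lower too, at 138 (WT) against 85.2 FPKM (hda108) after meiosis and 88.0 against 55.9 FPKM at the mitotic stage. Within that sum ms8 and ocl4 went the other way, higher in hda108 at both stages. These marker sums are as deposited. All FPKM of the mitotic groups summed to 1284185 in WT and 505427 in hda108. Scaled to equal sums, the anther wall markers would therefore be higher in hda108 at the mitotic stage. Pollen markers would stay lower in hda108 at both stages. The part of pollen or anther wall markers in the d8 and d9 values was not tested.

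The ratio of the 2 DELLA genes to each other is free of any factor that scales a whole group. d8 stood at 1.61 times d9 in WT and 1.64 times in hda108 after meiosis, and at 1.48 and 1.37 times at the mitotic stage. Of the 36 pairs among the 9 genes, this pair had the steadiest ratio, with the largest value 1.19 times the smallest. Together d8 and d9 held 116 FPKM in WT anthers and 72.5 FPKM in mutant anthers after meiosis, and 103 against 37.9 FPKM at the mitotic stage. Their shares of these sums moved little, with d8 between 57.9% and 62.1%.

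**Figure D1:**
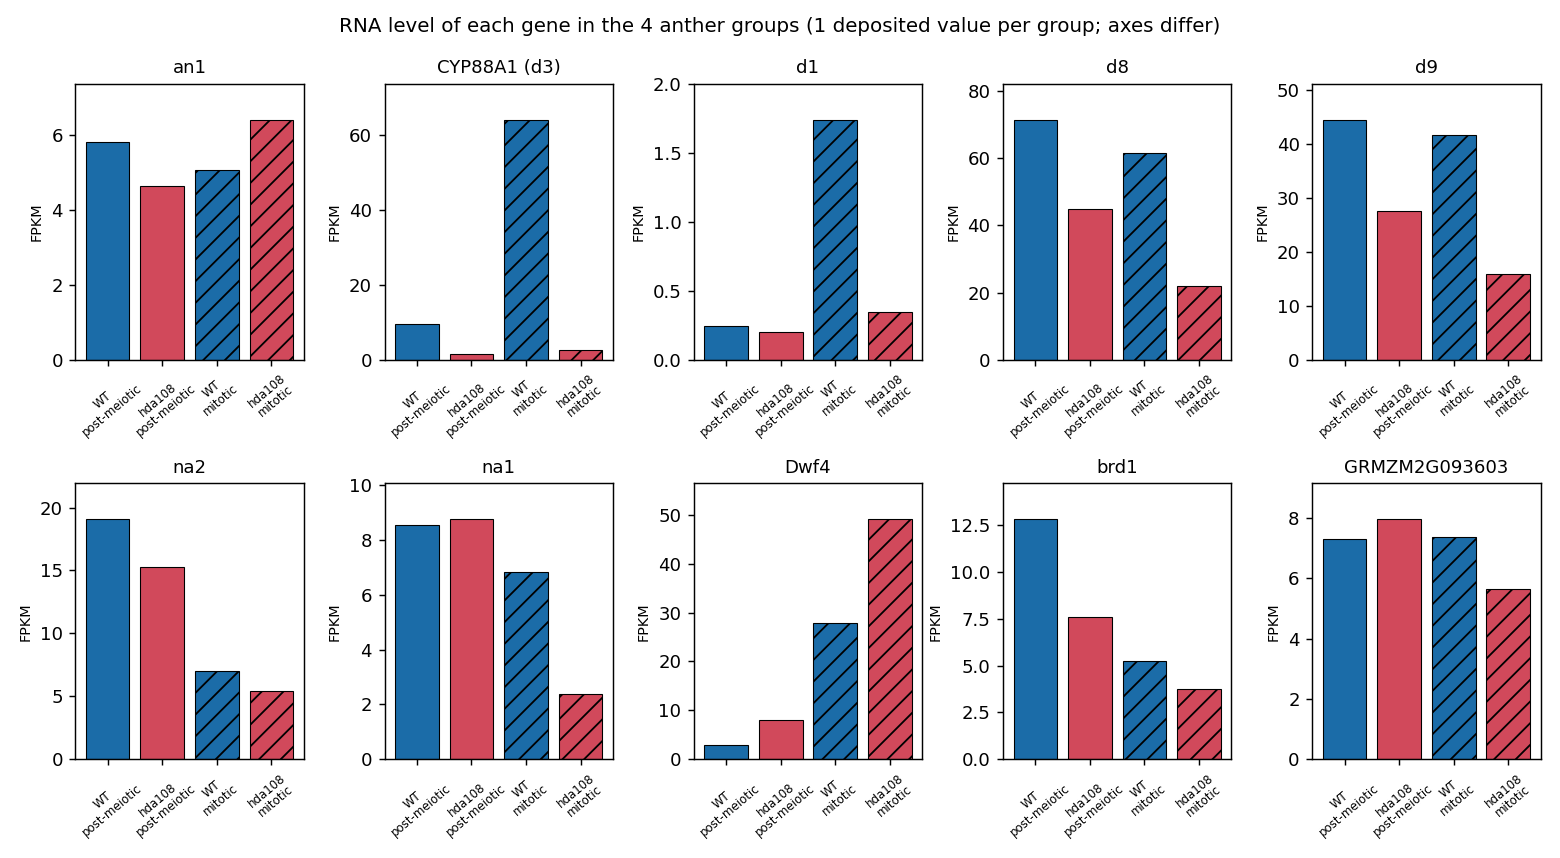
FPKM (linear axes from 0, which differ between panels) of the 9 listed genes and of CYP88A1 in the 4 groups; each bar is the 1 deposited value of a group, so there are no error bars, and hatched bars are the mitotic stage. d8 and d9 share 1 profile with their lowest bar in hda108 mitotic anthers, Dwf4 goes from 2.94 to 49.1 FPKM across its panel, and CYP88A1 is high in WT mitotic anthers alone, at 64.2 FPKM.

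Of the genes of gibberellin synthesis, an1 encodes the ent-copalyl diphosphate synthase of the first committed step. an1 (GRMZM2G081554, chromosome 1, 241277427 to 241285679) had 5.82 FPKM in WT anthers and 4.63 FPKM in mutant anthers after meiosis, and 5.06 against 6.40 FPKM at the mitotic stage. As deposited it was the flattest of the 9 genes, with its highest value 1.38 times its lowest, but with equal sums it spanned 3.21 times and d9 was flattest, at 1.32 times. Its genotype difference went from -0.28 log2 after meiosis (0.24 with equal sums) to 0.29 at the mitotic stage (1.47 with equal sums). As a ratio within each group, d8 stood at 12.3 times an1 in WT post-meiotic and 12.2 times in WT mitotic anthers, but at 9.73 and 3.43 times in hda108.

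d1 encodes the oxidase of the last step to bioactive gibberellin. d1 (GRMZM2G036340, chromosome 3, 10455336 to 10457618) was the least abundant of the 9 genes, with 0.244 FPKM in WT anthers and 0.199 FPKM in mutant anthers after meiosis, and 1.74 against 0.348 FPKM at the mitotic stage. It passed 1 FPKM in WT mitotic anthers alone. As a ratio it was 7.13-fold higher at the mitotic than at the post-meiotic stage in WT and 5.0-fold lower in hda108 than in WT at the mitotic stage. Because log2(FPKM + 1) compresses low values, these came to 1.14 and -1.02 log2, and with a pseudocount of 0.1 to 2.42 and -2.04, past the 4-fold rule. At such levels a few fragments decide the value, and the depth behind them is unknown.

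CYP88A1, the dwarf3 gene by the name table, encodes the ent-kaurenoic acid oxidase between these steps. CYP88A1 (GRMZM2G093195, chromosome 9, 26725935 to 26729883) had 9.49 FPKM in WT anthers and 1.37 FPKM in mutant anthers after meiosis, and 64.2 against 2.67 FPKM at the mitotic stage. It was 6.90-fold lower in hda108 after meiosis and 24.1-fold lower at the mitotic stage. The differences were -2.14 and -4.15 log2, both past the 4-fold rule, and -1.74 and -3.02 with equal sums, of which the post-meiotic value is inside it. In WT it was 6.77-fold higher at the mitotic stage, against 1.94-fold in hda108. CYP88A1 and d1 both had their highest value in WT mitotic anthers. Measured against an1, CYP88A1 stood at 12.7 times in WT and 0.417 times in hda108 mitotic anthers. Pollen markers also reached their highest sum in WT mitotic anthers, and their part in these values was not tested.

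GRMZM2G093603 was nearly level, with 7.30 FPKM in WT anthers and 7.95 FPKM in mutant anthers after meiosis, and 7.36 against 5.64 FPKM at the mitotic stage. It did not show the high WT mitotic value of CYP88A1. Counts over the 9 IDs below hold GRMZM2G093603, and putting CYP88A1 in its place adds 1 called gene in 3 of the 4 comparisons.

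The brassinosteroid genes na2, na1, Dwf4 and brd1 are described in turn. na2, the maize DWF1 gene, encodes a sterol reductase that acts before the hormone-specific steps. na2 (GRMZM2G057000, chromosome 5, 65138722 to 65143833) had 19.1 FPKM in WT anthers and 15.3 FPKM in mutant anthers after meiosis, and 6.99 against 5.45 FPKM at the mitotic stage. Its values separate by stage: it was 2.73-fold lower at the mitotic stage in WT and 2.81-fold lower in hda108. Its genotype ratios were 1.25 and 1.28, lower in hda108 at both stages as deposited and higher with equal sums, at 0.28 and 0.87 log2.

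na1, the maize DET2 gene, encodes a steroid reductase. na1 (GRMZM2G449033, chromosome 3, 179041146 to 179042863) had 8.53 FPKM in WT anthers and 8.74 FPKM in mutant anthers after meiosis, and 6.84 against 2.36 FPKM at the mitotic stage. Only the hda108 mitotic group stood apart, 2.89-fold below WT mitotic and 3.70-fold below hda108 post-meiotic anthers. The first of these differences was -1.22 log2 as deposited, -1.24 with quantile normalization and -0.16 with equal sums, below the 1.05 of all genes.

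Dwf4 encodes the P450 of side-chain hydroxylation, which in Arabidopsis is a rate-limiting and feedback-controlled step of brassinosteroid synthesis. Dwf4 (GRMZM2G065635, chromosome 1, 30536284 to 30542652) had 2.94 FPKM in WT anthers and 8.02 FPKM in mutant anthers after meiosis, and 28.0 against 49.1 FPKM at the mitotic stage. It was the only one of the 9 genes with higher values in hda108 than in WT at both stages, 2.73-fold after meiosis and 1.75-fold at the mitotic stage, as deposited and with quantile normalization. With equal sums an1, GRMZM2G093603 and na2 were above WT at both stages as well. The Dwf4 differences were 1.20 and 0.79 log2, beside -0.03 and -0.02 over all genes. With equal sums they were 1.73 and 2.11, beside 0.50 and 1.05 over all genes. By abundance the gene stood at rank 18320 in WT post-meiotic and at rank 1853 in hda108 mitotic anthers.

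brd1 encodes the P450 of the last step to active brassinosteroid. brd1 (GRMZM2G103773, chromosome 1, 249371976 to 249376239) had 12.8 FPKM in WT anthers and 7.57 FPKM in mutant anthers after meiosis, and 5.23 against 3.74 FPKM at the mitotic stage. It was 2.45-fold lower at the mitotic stage in WT and 2.02-fold lower in hda108, so that like na2 it was lower at the mitotic stage in both genotypes. In hda108 it was 1.69-fold and 1.40-fold below WT, with log2 differences of -0.69 and -0.40 that became -0.14 and 0.73 with equal sums.

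Within the pathway the groups differed most in the share of Dwf4. It made up 6.78% of the summed FPKM of the 4 brassinosteroid synthesis genes in WT and 20.3% in hda108 post-meiotic anthers, and 59.5% and 80.9% in mitotic anthers. The sum itself ranged from 39.6 to 60.6 FPKM. Dwf4 stood at 0.229 times brd1 in WT and 1.06 times in hda108 after meiosis, and at 5.34 and 13.1 times at the mitotic stage. These ratios are the same under any scaling that multiplies all genes of a group by 1 factor. The 3 pairs of Dwf4 with na1, na2 and brd1 had the most variable ratios of the 36 pairs, with spans of 57.2 to 60.3 times. Dwf4 with the gibberellin genes d8 and d9 followed closely, at 54.5 and 46.6 times, so wide spans were not particular to this pathway. na2 and brd1 kept the second steadiest ratio, between 1.34 and 2.02.

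**Figure D2:**
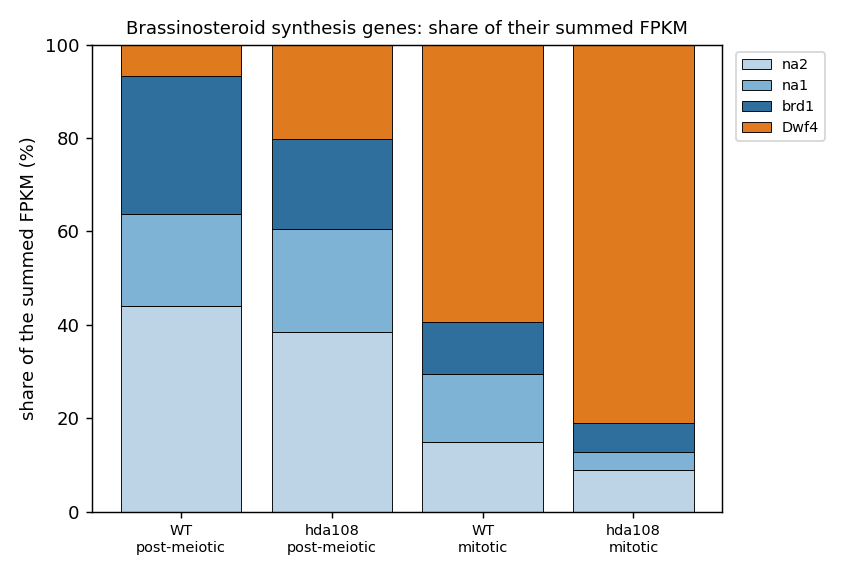
Share (%) of each brassinosteroid synthesis gene in the summed FPKM of na2, na1, brd1 and Dwf4, 1 stacked bar per group. The Dwf4 segment goes from 6.78% in WT post-meiotic to 80.9% in hda108 mitotic anthers, and it is larger in hda108 than in WT at each stage.

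The genotype comparison asked how these RNAs differed with the hda108 mutation at each stage. After meiosis 0 of the 9 genes were called by the 4-fold rule, where 6.16% of all 24360 genes were called. By the 2-fold rule 1 gene, Dwf4, was higher, as were 7.43% of all genes. The median difference over the 9 was -0.28 log2, beside -0.03 over all genes, and 0.24 beside 0.50 with equal sums. At the mitotic stage 0 of 9 were called, against 9.65% of all genes. The 2-fold rule called d8, d9, na1 and d1 lower, 4 of 9 genes, where it called 20.8% of all genes lower. The median was -0.40 beside -0.02, and 0.73 beside 1.05 with equal sums. d1 counts here through WT mitotic anthers, the only group in which it reached 1 FPKM. With equal sums 0 of 9 genes were lower by the 2-fold rule, against 7.4% of all genes, and 2 of 9, Dwf4 and an1, were higher, against 51.9% of all genes.

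**Figure D3:**
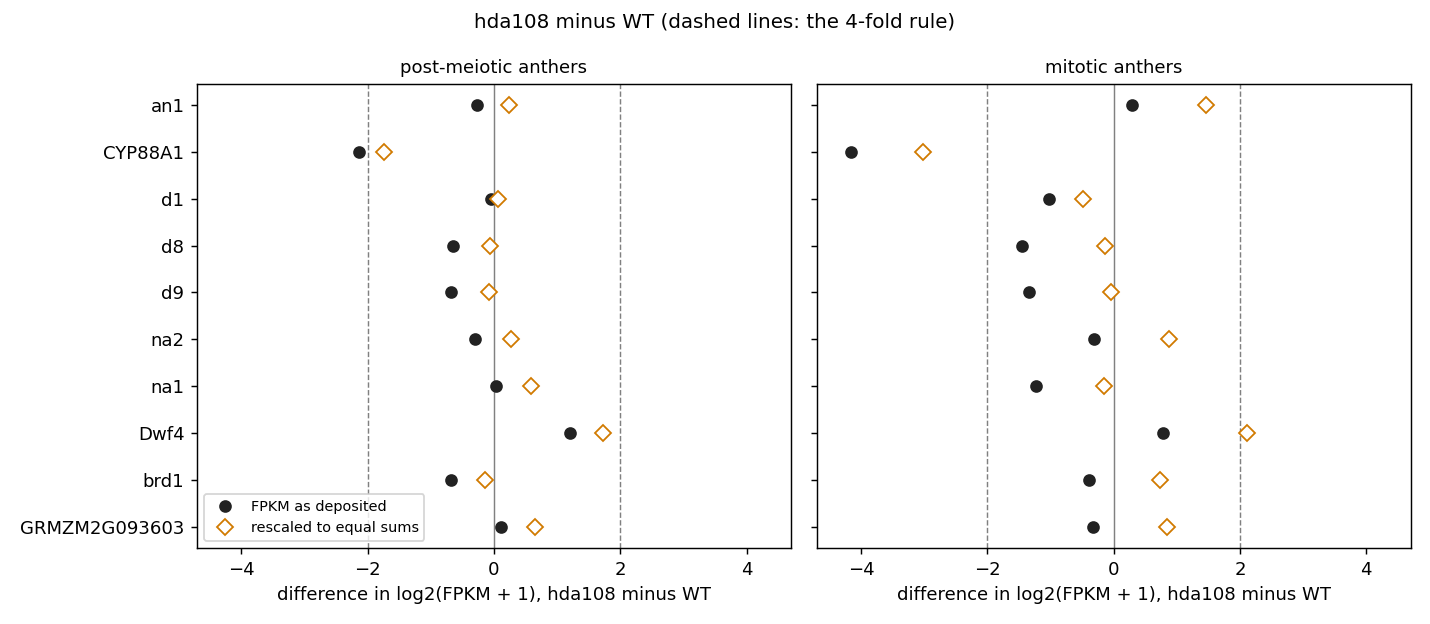
Difference in log2(FPKM + 1), hda108 minus WT, of each gene in post-meiotic (left) and mitotic anthers (right), with FPKM as deposited (filled circles) and after rescaling every group to the same sum (open diamonds); dashed lines mark the 4-fold rule at 2 and -2. Rescaling moves all points to the right, Dwf4 lies to the right of 0 and CYP88A1 to the left of 0 in both panels under both scalings.

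The difference between the mitotic and the post-meiotic genotype difference reached 2 log2 in 0 of the 9 genes, and in 2.45% of all genes. It was most negative for na1, at -1.25, followed by d1 at -0.97 and d8 at -0.79, and it was positive for an1 at 0.56 and brd1 at 0.29. With equal sums the extremes were -0.74 for na1 and 1.23 for an1, beside a median of 0.60 over all genes. CYP88A1, outside the 9, had -2.01, and -1.29 with equal sums.

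The stage comparison asked what differed between mitotic and post-meiotic anthers of the same genotype. In WT 1 of 9 genes, Dwf4, was called, higher at the mitotic stage by 9.52-fold, where 2.81% of all genes were called and 1.35% were higher. Its difference of 2.88 log2 was exceeded by 93 genes, 0.382% of those tested. The 2-fold rule also took in d1 as higher, with 5.76% of all genes, and na2 and brd1 as lower, with 11.3% of all genes. d1 passed the filter through WT mitotic anthers alone, the higher side of this comparison, so its call is no separate result. In hda108 Dwf4 was again the 1 called gene, 6.11-fold higher at the mitotic stage, where 3.95% of all genes were called and 1.02% were higher, and 135 genes (0.554%) had a larger difference than its 2.47 log2. There the 2-fold rule also took in na1, na2 and d8, all lower, as were 15.6% of all genes. These looser calls depended on the scaling. In WT, na2 and brd1 were no longer called with quantile normalization (-0.92 and -0.73 log2) or median-ratio scaling (-0.91 and -0.74), nor d1 with equal sums (0.94). In hda108, d8 was called under none of the 3 other scalings (-0.56 to -0.76), and na2 fell short with equal sums (-0.95) and median-ratio scaling (-0.96), while na1 stayed at -1.20 to -1.25. These 2 stage comparisons have no library in common, and Dwf4 kept its call in both under each scaling tried, with 2.60 to 3.27 log2 in WT and 2.47 to 3.23 in hda108.

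The median stage difference of the 9 genes was -0.17 log2 in WT and -0.75 in hda108, beside -0.31 and -0.27 over all genes. It depended on the scaling. With equal sums it was -0.38 in WT and -0.30 in hda108, beside -0.51 and 0.11 over all genes. With quantile normalization it was 0.09 and -0.51, beside -0.02 and 0.06. Median-ratio scaling gave 0.24 and -0.35, beside 0.04 and 0.05. Green tissue markers were lower at the mitotic stage in both genotypes and pollen markers had a higher sum there; their part in these values was not tested. The summed anther wall markers were lower at the mitotic stage in both genotypes.

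**Figure D4:**
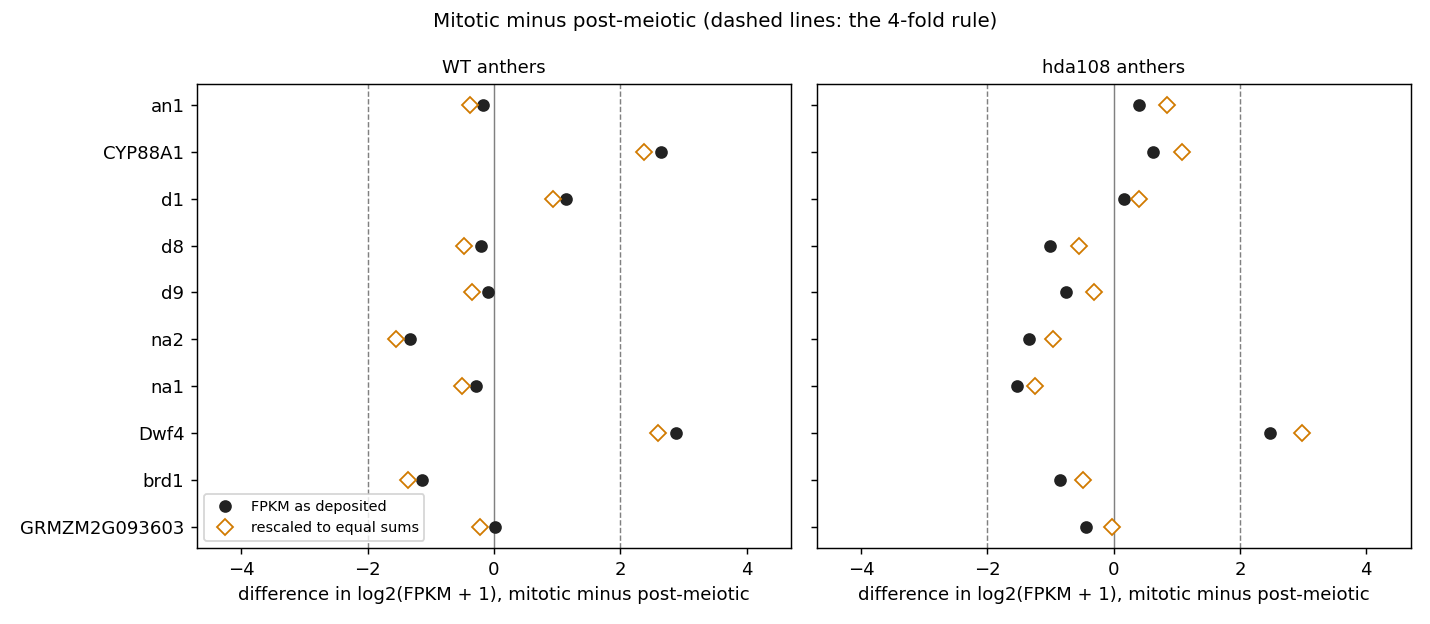
Difference in log2(FPKM + 1), mitotic minus post-meiotic, of each gene in WT (left) and hda108 anthers (right), with FPKM as deposited (filled circles) and after rescaling to equal sums (open diamonds); dashed lines mark the 4-fold rule. Dwf4 lies beyond 2 in both panels, CYP88A1 only in WT, and na2 and brd1 lie left of 0 in both.

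The genes of the set are spread over the genome, with 4 on chromosome 1 (Dwf4, an1, brd1 and d8), 2 on chromosome 3, 2 on chromosome 5 and GRMZM2G093603 on chromosome 2. No other row of the table overlapped any of them. Of their 18 nearest neighbours, 657 to 222681 bases away, 11 reached 1 FPKM in a group. By the 4-fold rule 1 neighbour was lower in hda108 at each stage, the gene GRMZM2G012611 to the right of an1, with -3.18 and -2.36 log2, and it was also the 1 neighbour called between stages, higher at the mitotic stage in hda108. Neither d8 nor d9 had a tested neighbour below WT in hda108, their differences lying between 0.15 and 1.19 log2.

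Among 111 genes with a RefSeq symbol that is not a locus number and a mean of at least 5 FPKM, the closest to d8 over its 4 centred log2 values were bk4 and OBF1, at distances of 0.18 and 0.22. bk4, named for brittle stalk, had 112 FPKM in WT anthers and 73.5 FPKM in mutant anthers after meiosis, and 108 against 32.7 FPKM at the mitotic stage. CYP92C6, WHY1 and DAO followed at 0.39 to 0.44. None of these 111 genes came as near to Dwf4: the first of its 5 nearest, sfp4, lay at 2.02, and ts5, CNR5, lox9 and MIR396e lay at 2.21 to 2.34. The distance was not scaled to the log2 range of a gene, which was 3.67 for Dwf4 and 1.66 for d8. Genes with a locus number as symbol, as d8 and Dwf4 have, were not searched. sfp4 had 3.93 FPKM in WT anthers and 8.85 FPKM in mutant anthers after meiosis but 12.1 against 10.1 FPKM at the mitotic stage, so it lacked the further step up in hda108. Each likeness rests on 4 values.

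A wider list of 123 gene names from both pathways was searched in the name table. It found 8 further genes with a row, of which 5 reached 1 FPKM in a group. As deposited 0 of these 5 were called in any of the 4 comparisons, where 2.81% to 9.65% of all genes were called. With equal sums serk3 (2.03 log2) and bas1 (2.16 log2) passed the 4-fold rule at the mitotic stage as higher in hda108, as did 13.7% of all genes. The median genotype difference of the 5 was 0.11 log2 in post-meiotic anthers, beside -0.03 over all genes, and 0.49 beside 0.50 with equal sums. In mitotic anthers it was 0.83 log2 beside -0.02, and 1.64 beside 1.05 with equal sums. These mitotic medians are the values of single genes, bas1 as deposited and an2 with equal sums. As deposited the 5 genes did not move together, ranging from -0.15 log2 for serk2 to 0.93 log2 for an2. Of the 5, an2 reached 1 FPKM only in hda108 mitotic anthers, and without it the deposited mitotic median was 0.57 log2. The median stage difference was -0.26 in WT and -0.25 in hda108, beside -0.31 and -0.27 over all genes. The match was by symbol alone, and bas1 and CPS1 may share only a symbol with the intended genes.

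GRMZM2G044358 (chromosome 6, 128498079 to 128499807), labelled ga3ox2 here, is a relative of d1 at another locus. The label does not stand for d1. It also covers a match to the name ga3ox1, and which number is right for this gene was not checked. The gene had 0.373 FPKM in WT anthers and 0.0446 FPKM in mutant anthers after meiosis, and 0.695 against 0.0439 FPKM at the mitotic stage. It stayed below 1 FPKM in all groups and was not tested. Like d1 it had its highest value in WT mitotic anthers. CPS1, of the early diterpene steps by its symbol, had 2.44 and 3.57 FPKM after meiosis and 2.12 and 2.85 FPKM at the mitotic stage. an2 and KSL4, diterpene synthase genes of maize defence compounds, were low, with an2 at 1.38 FPKM in hda108 mitotic anthers and at most 0.460 FPKM elsewhere, and KSL4 at no more than 0.0260 FPKM.

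The serk genes encode receptor kinases of the family that in Arabidopsis includes the brassinosteroid co-receptor. serk2 (GRMZM2G115420) was the most abundant, with 13.3 FPKM in WT anthers and 11.6 FPKM in mutant anthers after meiosis and 8.45 against 7.53 FPKM at the mitotic stage. serk3 (GRMZM2G150024) had 5.86 and 11.7 FPKM after meiosis and 3.71 and 7.53 FPKM at the mitotic stage, 2.00-fold and 2.03-fold higher in hda108. serk1 did not reach 1 FPKM. bas1 had 39.7 and 36.8 FPKM after meiosis and 32.9 and 59.4 FPKM at the mitotic stage.

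Further genes of the name table were added after their values were seen. CYP714B3 (GRMZM2G106408, chromosome 1, 54731139 to 54737676), of a P450 subfamily that in rice acts on gibberellins, had 5.26 FPKM in WT anthers and 23.6 FPKM in mutant anthers after meiosis, and 3.62 against 29.6 FPKM at the mitotic stage. It was 4.49-fold higher in hda108 after meiosis, at 1.98 log2 just inside the 4-fold rule and past it with equal sums (2.55) or quantile normalization (2.18), and 8.17-fold higher at the mitotic stage, at 2.73 log2. IBH1-1 (GRMZM2G388823, chromosome 2, 3879519 to 3880146), named after a helix-loop-helix factor that in rice and Arabidopsis restrains brassinosteroid-driven growth, went the other way. It had 13.8 and 5.39 FPKM after meiosis and 26.6 and 2.17 FPKM at the mitotic stage, 2.57-fold and 12.3-fold lower in hda108, and the mitotic difference of -3.12 log2 was past the 4-fold rule and stayed so with equal sums, at -2.04. The 2 IDs of CYP734A7, a P450 of brassinosteroid inactivation, were below 0.25 FPKM in all groups and listed at 0 in both mutant groups.

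**Figure D5:**
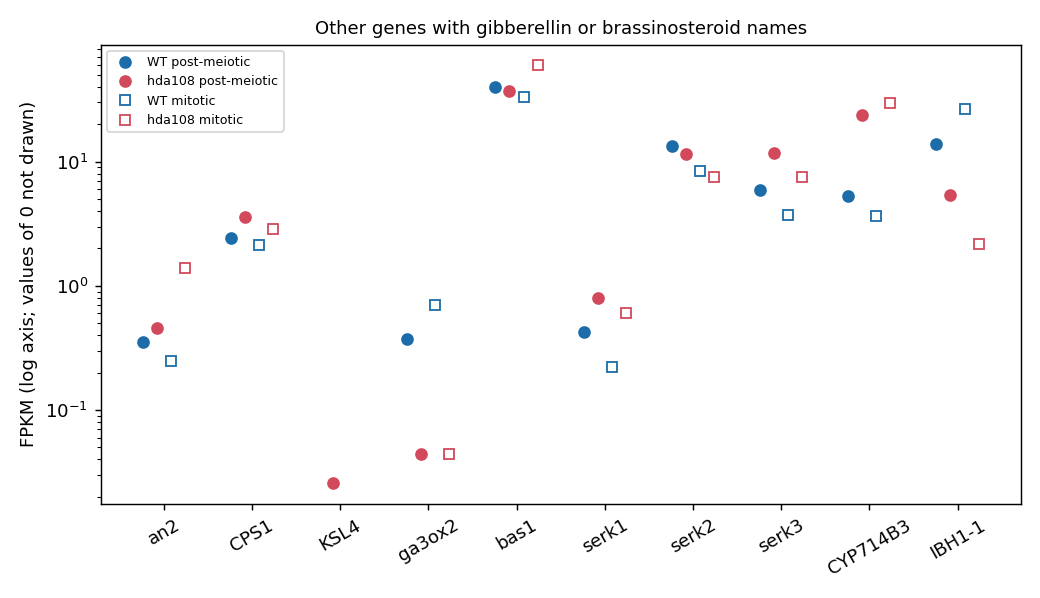
FPKM (log axis; values of 0 not drawn) of the 8 further genes found by name and of CYP714B3 and IBH1-1, with circles for post-meiotic and open squares for mitotic anthers, blue for WT and red for hda108. CYP714B3 is higher and ga3ox2 and IBH1-1 are lower in hda108 at both stages, while serk2 differs little between genotypes.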

How the data were processed

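The authors deposited FPKM values, with each gene given 1 value for each group per the file headers, for total RNA depleted of ribosomal RNA and sequenced from strand-specific libraries per the labels' protocols. Per the submitters' processing notes, B73 RefGen_v3 was the build, and Cuffdiff 2.2.1, Cufflinks, TopHat2 2.0.13, Trimmomatic 0.33, CASAVA 1.8 and SAMtools were tools, without role or order. The sources used here do not say how replicates were combined, how groups were scaled or whether counting used strand. The columns named for the homozygote were taken as hda108.

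The 24360 of 39604 genes that reached 1 FPKM in any group entered the comparisons, and differences were taken on log2(FPKM + 1) with no further scaling. All 9 listed IDs passed. With 1 value per group, the test with limma planned for single libraries could not be used, so p-values are absent. The 4-fold rule takes its place. Equal sums of 1000000, quantile normalization, median-ratio scaling, a pseudocount of 0.1, no filter and a 2-fold rule were alternatives.

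The members and lists were chosen with earlier results of these data known. Named genes are the 9, the most abundant wider-list gene of each role and the 5 nearest in profile to the gene of each pathway with the widest range of log2(FPKM + 1), d8 and Dwf4 (by ratio of FPKM, d1 varied more than d8); other names were chosen after their values were seen. Names come from RefSeq genes of Zm-B73-REFERENCE-NAM-5.0, which held all 9 IDs; coordinates are the authors'. No sequence was used here. Computations used Python 3.11.15, numpy 2.4.6, pandas 2.3.3 and matplotlib 3.10.9, and were tested on simulated data.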

Additional observations from a re-analysis of the deposited data

Results flagged for a closer look

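na1, the steroid reductase gene, had genotype differences of opposite sign at the 2 stages, 0.03 log2 in post-meiotic and -1.22 log2 in mitotic anthers, so that the mitotic difference was 1.25 log2 lower (-1.25). Its levels were 8.53 FPKM (WT) and 8.74 FPKM (hda108) after meiosis, against 6.84 and 2.36 FPKM at the mitotic stage. The difference between stages was not tested, since each group has 1 value, and the post-meiotic difference is close to 0. With equal sums the 2 differences were 0.59 and -0.16 log2, beside 0.50 and 1.05 over all genes. They were again of opposite sign, but the mitotic minus post-meiotic value of -0.74 fell short of the 1 log2 needed for a flag.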

How the results depend on the processing

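No paired analysis was possible because the table holds 1 value per group; for the same reason no replicate could be left out. Counts of called genes among the 9 were 0 for each genotype comparison, 1 for each stage comparison and 0 for the difference between genotype differences. Quantile normalization and median-ratio scaling changed none of these 5 counts. Leaving out the filter could not change them, since all 9 genes passed it. Rescaling to equal sums made the mitotic genotype count 1, with Dwf4 at 2.11 log2, where 13.7% of all genes were called higher. A pseudocount of 0.1 made it 1, with d1 at -2.04, and the WT stage count 2, with d1 at 2.42. In both comparisons the higher side for d1 is WT mitotic anthers, the only group in which it passed the filter. The 2-fold rule gave 1 post-meiotic and 4 mitotic genotype calls and 4 calls in each stage comparison. With CYP88A1 in place of GRMZM2G093603, an alternative chosen after seeing the data, the counts were 1 and 1 for genotype, 2 for stage in WT, 1 for stage in hda108 and 1 for the difference between genotype differences. Of 45 differences of single genes, rescaling to equal sums moved 16 by more than 1.5-fold and turned the sign of 11. Quantile normalization turned 3, median-ratio scaling 4 and the pseudocount 0, and no called difference changed sign. Depth is unknown, which limits d1 and the other genes below 1 FPKM most.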
